A study of Mus musculus with 6 samples.

Results

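The collagen genes of 3T3-L1 cells were examined in 6 RNA-seq libraries, 3 of control cells and 3 of cells exposed to chronic intermittent hypoxia (CIH), that is, repeated spells of low oxygen. Members were all protein-coding genes of GENCODE mouse release M21 listed in all 6 tables whose symbol has the form Col, number, a, number. This gave 44 genes of 21769: 11 fibrillar collagens, 6 type IV collagens of the basement membrane and 27 others. 3T3-L1 is an established mouse fibroblast line that can be turned into fat cells, labelled here as wild type and as adipocytes. Cells of both groups were grown in medium with 10% serum, induced with insulin and kept in 0.1 µM insulin until day 8, and the groups are set apart in the labels by treatment alone (control or CIH). Being 1 cell line in culture, the model holds no stromal, vascular or immune cells of fat tissue. The labels state neither the oxygen levels, nor the length of a cycle, nor when RNA was taken. They also name no separate cultures, so the p-values measure the spread of these libraries only, and that spread may be technical.

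Collagens are secreted proteins in which 3 chains wind into a triple helix. Fibrillar collagens (types I, II, III, V, XI, XXIV and XXVII) form the cross-striated fibrils that carry tension, with types V and XI setting fibril diameter. Type IV collagen forms the sheet-like network of basement membranes, and type VI forms beaded filaments near the cell surface. In fat, each adipocyte is wrapped in a basement membrane, type VI collagen is abundant around it, and fibrillar collagens are made mainly by preadipocytes and fibroblasts, whose fibrillar output falls as they differentiate. Chains need prolyl hydroxylation before the helix is stable, and prolyl and lysyl hydroxylation both use molecular oxygen.

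Promoter windows of RefSeq (GRCm38.p6, 250 bases before to 50 bases after a start site) were found for 35 of the 44 members, among them 19 of the 22 members tested below. Printed are those of 3 fibrillar genes that rose together (Col1a2, chr6:4505368-4505667, plus strand; Col3a1, chr1:45311288-45311587, plus strand; Col5a1, chr2:27886175-27886474, plus strand) and of the type IV pair Col4a1 (chr8:11312777-11313076, minus strand) and Col4a2 (chr8:11312555-11312854, plus strand). Col4a1 and Col4a2 are read head to head from start sites 21 bases apart, and their windows share 78 bases. Capitals mark 4 motifs on either strand: the CCAAT box, searched by those letters, the GC box (GGGCGG), the letters TATAAA and the core of hypoxia response elements (ACGTG in some promoters, otherwise GCGTG). No other motif was searched, and matches of different motifs may overlap.
Col1a2: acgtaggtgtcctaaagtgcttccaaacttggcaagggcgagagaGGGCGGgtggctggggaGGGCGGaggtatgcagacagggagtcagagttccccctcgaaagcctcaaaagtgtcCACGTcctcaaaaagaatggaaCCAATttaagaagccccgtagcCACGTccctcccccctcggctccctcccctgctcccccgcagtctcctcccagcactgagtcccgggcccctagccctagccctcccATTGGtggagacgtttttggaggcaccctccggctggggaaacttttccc
Col3a1: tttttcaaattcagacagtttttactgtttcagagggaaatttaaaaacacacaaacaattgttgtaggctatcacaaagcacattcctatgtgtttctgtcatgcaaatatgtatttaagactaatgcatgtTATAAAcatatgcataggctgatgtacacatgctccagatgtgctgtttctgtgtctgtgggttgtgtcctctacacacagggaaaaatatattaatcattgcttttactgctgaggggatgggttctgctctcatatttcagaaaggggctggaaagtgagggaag
Col5a1: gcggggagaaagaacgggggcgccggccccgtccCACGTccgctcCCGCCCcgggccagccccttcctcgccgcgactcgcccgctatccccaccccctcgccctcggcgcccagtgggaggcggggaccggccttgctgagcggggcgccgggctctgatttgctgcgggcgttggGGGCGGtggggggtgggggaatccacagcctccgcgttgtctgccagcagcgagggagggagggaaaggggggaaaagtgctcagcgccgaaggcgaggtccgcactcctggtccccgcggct
Col4a1: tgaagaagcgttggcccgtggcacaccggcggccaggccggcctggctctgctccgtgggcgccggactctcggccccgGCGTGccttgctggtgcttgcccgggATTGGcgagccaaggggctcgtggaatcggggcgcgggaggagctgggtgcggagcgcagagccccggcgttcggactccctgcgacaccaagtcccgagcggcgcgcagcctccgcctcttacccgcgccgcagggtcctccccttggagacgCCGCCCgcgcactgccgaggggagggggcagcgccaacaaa
Col4a2: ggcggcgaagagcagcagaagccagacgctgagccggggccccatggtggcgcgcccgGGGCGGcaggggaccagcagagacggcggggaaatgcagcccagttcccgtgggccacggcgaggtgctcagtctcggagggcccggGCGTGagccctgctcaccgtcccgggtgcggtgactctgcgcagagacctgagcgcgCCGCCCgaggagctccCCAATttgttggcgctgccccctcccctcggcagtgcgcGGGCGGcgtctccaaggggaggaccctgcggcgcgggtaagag
A GC box was found in the windows of 14 of the 19 members and in 35.7% of all 32851 windows, a CCAAT box in 9 and in 37.4%, the letters TATAAA in 2 and in 13.6%, and the hypoxia response core in 8 and in 43.8%. Col1a2 held 2 hypoxia response cores, Col5a1, Col4a1 and Col4a2 held 1 each, and Col3a1 held TATAAA but none of the other 3 motifs. These are matches of letters, not measured binding sites.

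The tables hold FPKM, fragment counts scaled by transcript length and by the depth of the library. Replicates 1 and 2 of both groups came as gene tables with a depth of 25700000 to 28000000 fragments, and replicate 3 of both groups came as transcript tables whose entries were summed per gene and whose depth is unknown. The kinds of table were made by different steps and their levels cannot be set against each other, so CIH 1 and 2 were compared with control 1 and 2, and CIH 3 with control 3. The replicate 3 pair stood apart in adipocyte identity too. All 12 markers of an adipocyte list passed the filter on low values. In replicates 1 and 2, 6 of them fell and 0 rose, beside 20.9% and 18.2% of all genes tested. With the replicate number added to the fit (a replicate block), Lipe and Cebpa lost their calls (limma adjusted p = 0.0585 and 0.0771). The summed level of the 12 was 9252 and 9815 FPKM in control 1 and 2 against 8706 and 7763 in CIH 1 and 2. It was 32101 in control 3 and 742 in CIH 3, where all 12 were at least 2-fold lower (11.8% of all genes). Of 7 tested preadipocyte and fibroblast markers 5 rose and 2 fell in replicates 1 and 2, beside 18.2% and 20.9% of all genes. Pdgfra, 1 of those that fell, lost its call with the block (adjusted p = 0.0606). The 10 on that list summed to 238 and 242 FPKM in control 1 and 2, 397 and 384 in CIH 1 and 2, 719.8 in control 3 and 3054 in CIH 3. Summed endothelial markers lay between 0.166 and 0.719 FPKM in the 6 libraries and macrophage markers between 1.32 and 4.62, with 1 of 4 macrophage markers at 0 throughout. Epithelial markers summed to 8.71 and 9.49 FPKM in control 1 and 2, 0.415 and 0.245 in CIH 1 and 2, 1.56 in control 3 and 0.330 in CIH 3. The part of these markers' cells in the collagen values was not tested. In such bulk samples, fewer cells of a type and less RNA per cell cannot be told apart.

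CIH 1 and 2 held more RNA of most expressed collagen genes than control 1 and 2, across all 3 classes, by less than 2-fold for the abundant ones. Of the 22 members whose FPKM averaged 1 or more across the 6 libraries, 13 rose, 1 fell and 8 were not called (limma on log2(FPKM + 1), adjusted p under 0.05 over all 10976 genes tested). Among all genes tested, 39.1% were called: 18.2% rose and 20.9% fell (1338 genes higher and 3107 lower after scaling by total FPKM, against 1995 and 2297 as deposited). The median log2 change was 0.46 for the 22 members and −0.01 for all genes. In 17 members both CIH libraries lay above both controls, as in 35.1% of all genes, and in 1 member below, as in 38.9%. Leaving out any 1 library leaves 1 library in its group. Fewer members were then called, and fewer of all genes too.

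**Figure D1:**
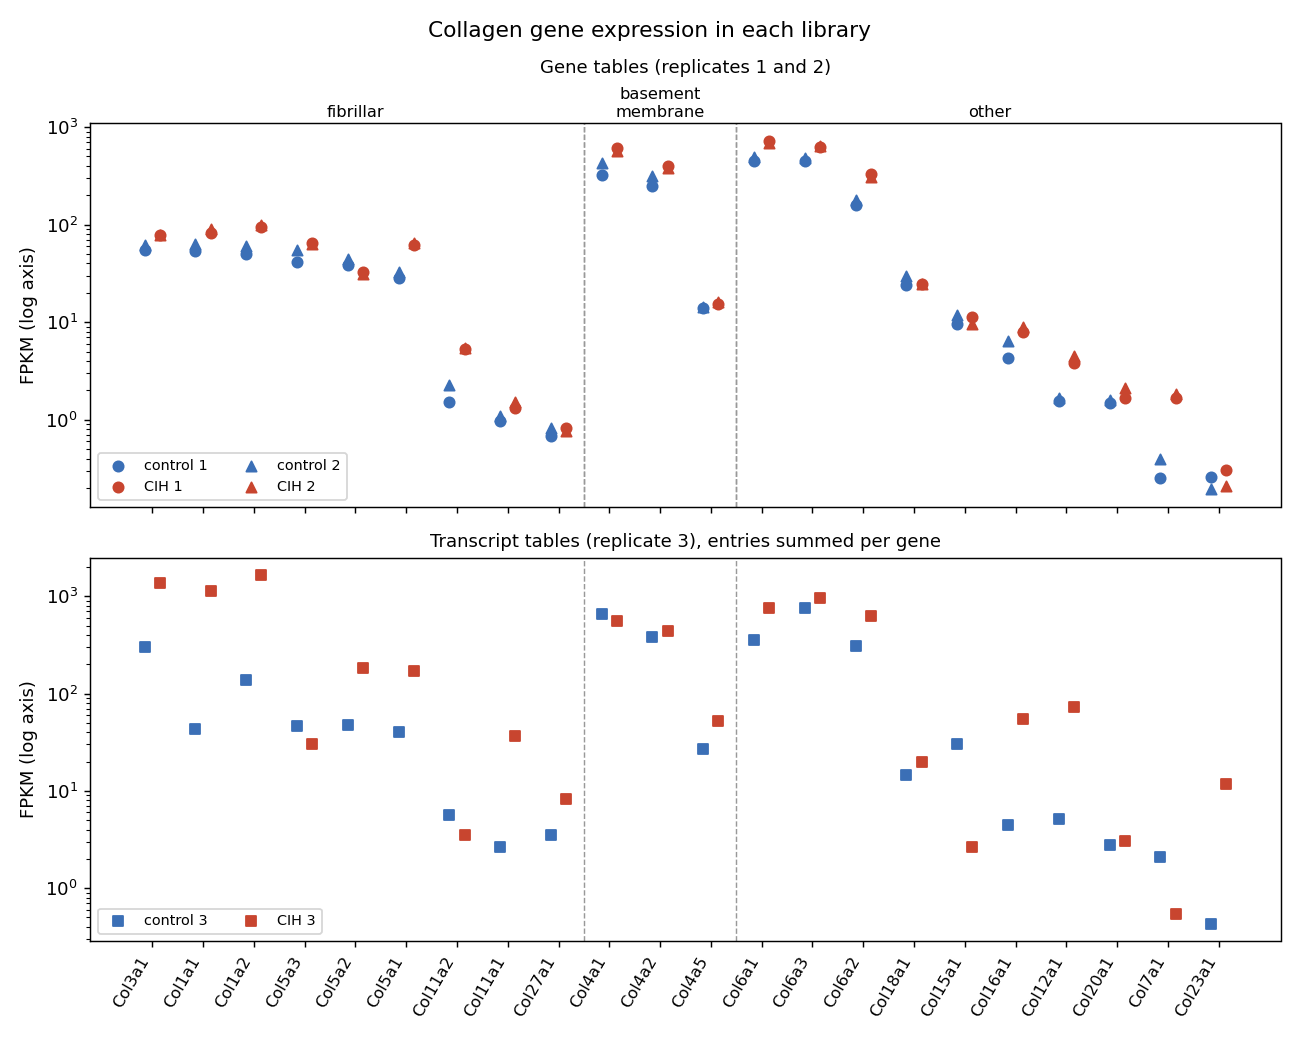
Expression of the 22 tested collagen genes in FPKM (log axis) in each library, control in blue and CIH in red, for the gene tables (upper panel) and the transcript tables (lower panel); each point is 1 library. In the upper panel Col6a1, Col6a3 and Col4a1 are the highest genes in all 4 libraries, and in the lower panel Col1a2 is the highest in CIH 3 with 1647 FPKM.

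Type I collagen, the main collagen of most connective tissue, is built from the products of Col1a1 and Col1a2. Col1a1 was 54.0 and 62.7 FPKM in control 1 and 2 against 81.3 and 89.3 in CIH 1 and 2, with no overlap (log2 change 0.54, SE 0.102, adjusted p = 0.0155). Col1a2 was 50.2 and 59.9 FPKM in control 1 and 2 against 93.9 and 98.2 in CIH 1 and 2 (log2 change 0.80, SE 0.104, adjusted p = 0.00601). Both chains were thus higher in each CIH library than in each control of replicates 1 and 2, as were 35.1% of all genes. Col3a1, whose product co-assembles with type I in fibrils, went from 55.3 and 62.0 FPKM to 78.3 and 78.5 (log2 change 0.41, SE 0.082, adjusted p = 0.0175). The call of Col1a1 was lost without CIH 2, and that of Col3a1 without control 1, CIH 1 or CIH 2.

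The type V and XI genes, whose products lie in the core of fibrils, moved unevenly. Col5a1 went from 28.3 and 32.8 to 62.0 and 65.1 FPKM (log2 change 1.04, SE 0.0925, adjusted p = 0.00248). Col5a2, its usual partner chain, was the only member that fell, from 38.5 and 44.7 to 32.9 and 31.1 FPKM (log2 change −0.36, SE 0.0946, adjusted p = 0.036, and 0.0622 with a replicate block), and it was not called without control 2, CIH 1 or CIH 2. Col5a2 lies tail to tail with Col3a1 on chromosome 1 (45374321 to 45503282 and 45311538 to 45349706, GRCm38), and these neighbours thus moved in opposite directions in replicates 1 and 2. Col5a3, another type V chain, was 41.8 and 54.5 FPKM in control 1 and 2 against 65.5 and 63.3 in CIH 1 and 2 and was not called (adjusted p = 0.0606). Col11a2 rose from 1.51 and 2.26 to 5.28 and 5.47 FPKM (log2 change 1.15, SE 0.141, adjusted p = 0.00503). Col11a1 was near the filter, at 0.967 and 1.09 FPKM in control 1 and 2 against 1.30 and 1.53 in CIH 1 and 2 (log2 change 0.25, adjusted p = 0.0482), and lost its call with a pseudocount of 0.1 and whichever of the 4 libraries was left out. Col27a1 was 0.689 and 0.831 FPKM in control 1 and 2 against 0.825 and 0.772 in CIH 1 and 2, and the groups overlapped. Of the 9 fibrillar members tested, 6 rose, 1 fell and 2 were not called, with a median log2 change of 0.42. Among all genes tested 18.2% rose and 20.9% fell.

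The basement membrane genes Col4a1 and Col4a2, whose products form the common type IV molecule, were among the 4 most abundant collagens in control 1 and 2. Col4a1 was 319.8 and 425 FPKM in control 1 and 2 against 611 and 576 in CIH 1 and 2 (log2 change 0.68, SE 0.166, adjusted p = 0.0303, and 0.0546 with a replicate block). Col4a2 was 248 and 316 FPKM in control 1 and 2 against 402 and 379 in CIH 1 and 2, with no overlap, but missed the threshold (log2 change 0.48, SE 0.144, adjusted p = 0.0529). Control 1 and 2 differed more from each other in both genes than CIH 1 and 2 did. Col4a5, a chain of specialised basement membranes, was 13.9 and 14.4 FPKM in control 1 and 2 against 15.5 and 16.1 in CIH 1 and 2 (adjusted p = 0.143). Of these 3 tested members 1 rose and 2 were not called, beside 18.2% of all genes that rose and 20.9% that fell. The call of Col4a1 was lost without control 1, CIH 1 or CIH 2.

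Type VI collagen, a beaded-filament collagen of the adipocyte surface, includes the 2 genes with the highest FPKM in the gene tables, Col6a1 and Col6a3. Col6a1 was 446 and 488 FPKM in control 1 and 2 against 724 and 688 in CIH 1 and 2 (log2 change 0.60, SE 0.117, adjusted p = 0.0172, and 0.0571 with a replicate block). Col6a2 showed the largest rise of the 3 genes, from 159.8 and 179 to 330.4 and 307 FPKM (log2 change 0.91, SE 0.101, adjusted p = 0.00407). Col6a3, whose product carries the peptide endotrophin at its end, was 446 and 486 FPKM in control 1 and 2 against 623 and 647 in CIH 1 and 2 (log2 change 0.45, SE 0.113, adjusted p = 0.0343, and 0.0932 with a replicate block). All 3 were higher in each CIH library than in each control of replicates 1 and 2, as were 35.1% of all genes. Col6a3 lost its call whichever of the 4 libraries was left out, and Col6a1 was not called without control 1, control 2 or CIH 1.

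Collagens that decorate fibrils or anchor epithelia were low but several rose. Col12a1, of a fibril-associated type, went from 1.57 and 1.68 to 3.86 and 4.46 FPKM (log2 change 0.97, SE 0.0893, adjusted p = 0.00263). Col16a1, also fibril-associated, went from 4.28 and 6.38 to 8.01 and 9.0 FPKM (log2 change 0.60, SE 0.177, adjusted p = 0.0495) and lost its call with a pseudocount of 0.1 and without control 1, CIH 1 or CIH 2. Col7a1, which makes the anchoring fibrils of skin, went from 0.253 and 0.396 to 1.68 and 1.82 FPKM (log2 change 1.05, SE 0.0723, adjusted p = 0.00137). It rested on 67 and 114 fragments in control 1 and 2 against 451 and 513 in CIH 1 and 2, and had the lowest adjusted p of any collagen. The multiplexins, found at basement membranes, did not pass the threshold: Col18a1, the source of endostatin, was 24.3 and 29.6 FPKM in control 1 and 2 against 24.9 and 24.7 in CIH 1 and 2 (adjusted p = 0.447). Col15a1 was 9.58 and 11.7 FPKM in control 1 and 2 against 11.2 and 9.53 in CIH 1 and 2 (adjusted p = 0.852). Col20a1 (1.47 to 2.13 FPKM in the gene tables) and the transmembrane collagen Col23a1 (0.193 to 0.307) were not called either. Col23a1 and Col27a1 passed the filter only through the transcript tables.

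The other 22 members were under the filter: Col2a1 and Col24a1 of the fibrillar class, Col4a3, Col4a4 and Col4a6 of the basement membrane class, and Col6a4, Col6a5, Col6a6, Col8a1, Col8a2, Col9a1, Col9a2, Col9a3, Col10a1, Col13a1, Col14a1, Col17a1, Col19a1, Col22a1, Col25a1, Col26a1 and Col28a1. In the gene tables none exceeded 0.426 FPKM, and 14 of them had at most 5 fragments in every library. Col26a1, Col6a4, Col13a1 and Col6a5 had no fragment in the 4 gene tables, which allows up to 3 fragments per library by counting error alone, and Col6a5 was listed at 0 in all 6 tables. The highest value among these 22 was that of Col28a1, 4.10 FPKM in CIH 3 against 0.103 in control 3. Its gene-table values were 0.0713 and 0.0364 in control 1 and 2 against 0.226 and 0.156 in CIH 1 and 2, from 9, 5, 29 and 21 fragments. Col2a1, the collagen of cartilage, was at most 0.056 FPKM in any library.

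In the replicate 3 pair the fibrillar genes differed far more than the type IV genes. This pair has 1 library per group, so the differences have no replicate check. Of the 22 members, 12 were higher in CIH 3 by 2-fold or more (21.8% of all genes) and 2 lower by as much (11.8%; 33.6% in either direction), with a median log2 difference of 1.04 against 0.26 for all genes. Col23a1 passed the filter only through CIH 3, so its place among the 12 was set by the filter. With the filter over the 4 gene tables, 10 of 20 were higher by 2-fold or more (17.8% of all genes) and 2 lower (12.6%). The median of all genes was −0.00, 0.22 and 0.86 after scaling by the median of ratios, the upper quartile and total FPKM, so differences are also given relative to it. The all-gene counts of 2398 higher and 1292 lower became 1789 and 1728 with the median of ratios and 4786 and 696 with total FPKM. The members' counts of 12 higher and 2 lower became 9 and 2 with the median of ratios. They became 11 and 2 with the upper quartile and 14 and 1 with total FPKM. Col1a1 was 43.1 FPKM in control 3 and 1122 in CIH 3, a log2 difference of 4.67, or 4.41 relative to all genes. Col1a2 was 139.6 and 1647 (3.55, or 3.29 relative to all genes), and Col3a1 301 and 1365 (2.18, or 1.91). Together with Col5a1 (40.3 and 173), Col5a2 (48.0 and 182), Col11a1 (2.68 and 36.3) and Col27a1 (3.51 and 8.28), 7 of 9 fibrillar members were at least 2-fold higher. All 7 stayed higher in CIH 3 under the 3 other scalings, from 0.80 upward on the log2 scale.

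The remaining fibrillar genes and the type IV genes were less than 2-fold apart in this pair as deposited. Col5a3 was 46.2 FPKM in control 3 and 30.6 in CIH 3 and Col11a2 was 5.64 and 3.53; the sign for Col5a3 changed with scaling by total FPKM (log2 difference −0.58 as deposited, 0.03 scaled). Col4a1 was 652 FPKM in control 3 and 557 in CIH 3 and Col4a2 was 378 and 443. Neither has a stable sign: log2 differences ranged from −0.52 to 0.40 for Col4a1 and from −0.07 to 0.85 for Col4a2 over the 4 scalings. Col4a5 was 27.2 and 52.8 FPKM, or 0.67 relative to all genes on the log2 scale. With scaling by total FPKM, Col4a5 was over 2-fold higher (1.56).

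Among the others, fibril-associated Col12a1 (5.19 FPKM in control 3 and 72.0 in CIH 3) and Col16a1 (4.49 and 54.7) were higher in CIH 3, at log2 differences of 3.56 and 3.34. Transmembrane Col23a1 was 0.429 FPKM in control 3 and 11.7 in CIH 3, a difference without which it would not have passed the filter. Col6a1 (357 and 760.5) and Col6a2 (309 and 632) were about 2-fold higher, at log2 differences of 1.09 and 1.03, and Col6a3 (753 and 966) stood at 0.36. The multiplexin Col15a1 was the lowest relative to its control, at 29.99 FPKM in control 3 and 2.67 in CIH 3 (log2 difference −3.08). Col7a1 was 2.09 and 0.542 FPKM, opposite to its rise in replicates 1 and 2. Of the 13 members called upward before, CIH 3 was above control 3 by 2-fold or more in 9 and below it in 3 (Col4a1, Col11a2 and Col7a1). The matching share among all genes called upward was not counted. The sign for Col4a1 changed with scaling. Col6a1 and Col6a2, among the 9, were under 2-fold with the median of ratios (0.80 and 0.73). Adipocyte markers moved with the collagen differences of this pair, 12 of 12 at least 2-fold lower (11.8% of all genes). They summed to 742 FPKM in CIH 3 against 32101 in control 3. Preadipocyte and fibroblast markers moved with the differences too, 7 of 7 tested at least 2-fold higher (21.8% of all genes). Myofibroblast markers summed to 14.9 and 85.9 FPKM, with 1 of the 3 tested, Myl9, past the filter only through CIH 3. Chondrocyte markers summed to 3.90 and 55.0 FPKM. Most of both sums was Sox9 (3.02 FPKM in control 3 and 53.8 in CIH 3), the only 1 of the 4 that was tested. The part of all these markers in the collagen values was not tested.

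**Figure D2:**
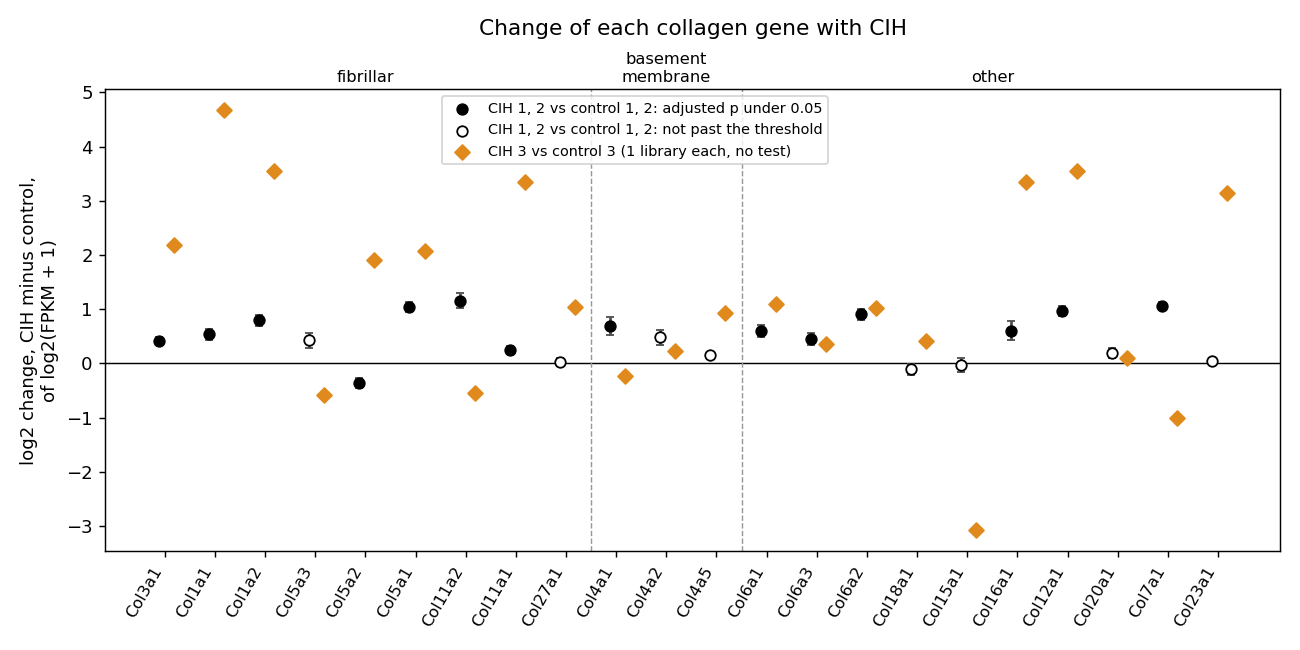
Log2 change of log2(FPKM + 1), CIH minus control, for each tested collagen gene: circles are CIH 1 and 2 against control 1 and 2 with the limma standard error (filled where adjusted p was under 0.05) and diamonds are CIH 3 against control 3 (1 library each, no error). Col1a1 lies at 0.54 in the first comparison and 4.67 in the second, while Col15a1 lies at −0.03 and −3.08.

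The change in the pair was set against that in replicates 1 and 2 by the interaction of group and kind of table in limma. Control 3 and CIH 3 have no replicate of their own kind, so this interaction takes its spread from replicates 1 and 2 and assumes that the lone libraries vary like those, which could not be checked. Its calls compare these libraries and not the conditions. In 11 of the 22 members the change was more positive in replicate 3 (43.9% of all genes) and in 5 more negative (22.1%; 66.0% in either direction). Over all genes the 4819 more positive and 2430 more negative became 3123 and 3466 with the median of ratios and 7620 and 1101 with total FPKM. Among the 9 fibrillar members tested, the change was more positive in 7 and more negative in 2. Col23a1, 1 of the 11, passed the filter only through CIH 3, so its place among them was set by the filter. Col27a1, also among the 11, passed only through the transcript tables. The interaction was not fitted with the filter over the 4 gene tables. The difference was 4.13 log2 units for Col1a1, 3.09 for Col11a1 and 2.27 for Col5a2, against −3.04 for Col15a1. Col6a1, Col6a2, Col6a3, Col4a2, Col18a1 and Col20a1 were not called as deposited. With scaling by total FPKM the members called became 15 more positive and 3 more negative. Col6a1 (1.25), Col6a2 (0.87), Col6a3 (0.67) and Col18a1 (1.26) then gained a call, and Col4a1 (−0.15) and Col5a3 (−0.27) lost theirs.

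Chains of 1 molecule, and the main chains of types III and I, which share fibrils, were then compared as ratios of FPKM within each library, which do not depend on how a library was scaled. With 2 libraries against 2 an exact two-sided permutation test cannot go below p = 0.333, so the ratios of 6 pairs of chains are given as values. Col5a1 to Col5a2 was 0.736 and 0.734 in control 1 and 2 against 1.88 and 2.09 in CIH 1 and 2, a shift in the same direction in both, but 0.841 in control 3 and 0.948 in CIH 3. Col1a1 to Col1a2 was 1.08 and 1.05 in control 1 and 2, 0.865 and 0.910 in CIH 1 and 2, 0.309 in control 3 and 0.681 in CIH 3. The ratio was thus lower in CIH in replicates 1 and 2 and higher in CIH in replicate 3. Col6a1 to Col6a2 was 2.79 and 2.73 in control 1 and 2, 2.19 and 2.24 in CIH 1 and 2, 1.15 in control 3 and 1.20 in CIH 3. Col4a1 to Col4a2 was 1.29 and 1.35 in control 1 and 2 against 1.52 and 1.52 in CIH 1 and 2, and 1.73 and 1.26 in the replicate 3 pair. Col3a1 to Col1a1 was close to even in the gene tables (0.879 to 1.02) but 6.99 in control 3 and 1.22 in CIH 3. Col6a3 to Col6a1 was 0.999 and 0.997 in control 1 and 2, 0.861 and 0.940 in CIH 1 and 2, and 2.11 and 1.27 in the replicate 3 pair (1.05 and 0.823 from the highest entry of each gene in place of the sum).

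**Figure D3:**
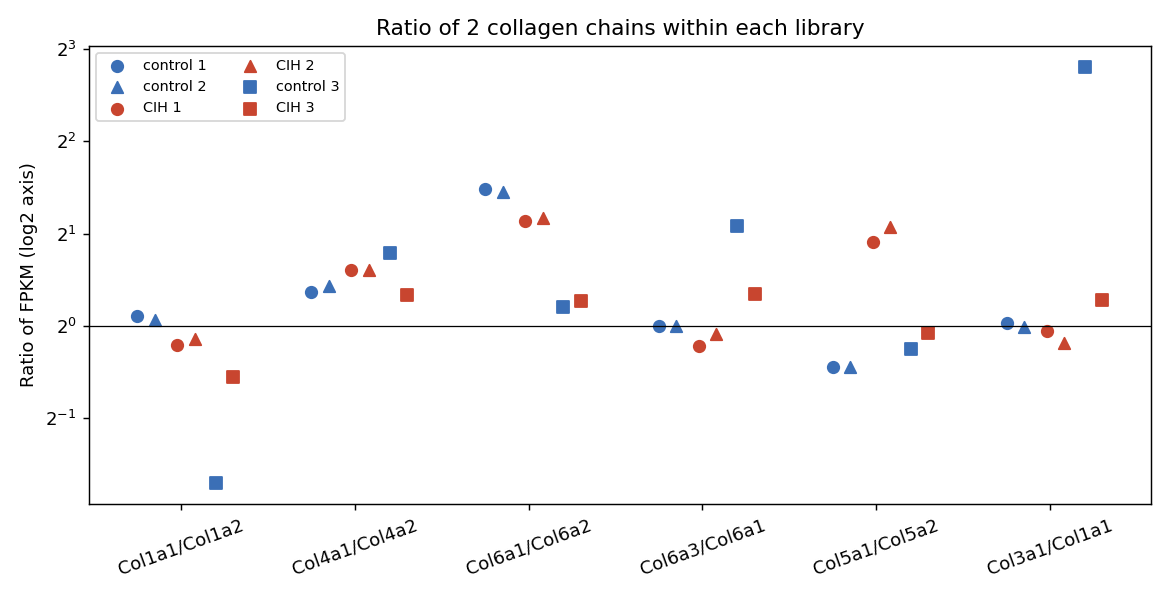
Ratio of the FPKM of 2 collagen chains within each library (log2 axis; the line marks equal levels), control in blue and CIH in red, with circles, triangles and squares for replicates 1, 2 and 3. Col5a1/Col5a2 is below 1 in control 1 and 2 (0.736 and 0.734) and above it in CIH 1 and 2 (1.88 and 2.09).

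Summed over all 44 members, collagen RNA was 1947 and 2281 FPKM in control 1 and 2 against 3180.3 and 3098 in CIH 1 and 2, or 0.606% and 0.714% of all FPKM against 0.880% and 0.910%. The sum was 1.48-fold higher in CIH, and the class sums were higher by 1.44-fold for fibrillar, 1.496-fold for basement membrane and 1.49-fold for the others. Fibrillar genes made up 13.9% and 14.1% of the collagen sum in control 1 and 2 against 13.3% and 14.0% in CIH 1 and 2. In the replicate 3 pair the sum was 3168 FPKM in control 3 and 8153 in CIH 3, with a fibrillar share of 19.9% and 56.0%. The basement membrane sum was 1058 FPKM in control 3 and 1053 in CIH 3, or 0.124% and 0.191% of all FPKM. Mitochondrial-encoded genes held 43.7% of all FPKM in control 3 and 22.4% in CIH 3. Without them, the basement membrane sum was 0.221% and 0.247% of FPKM. Its share of the collagen sum was 33.4% in control 3 and 12.9% in CIH 3.

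**Figure D4:**
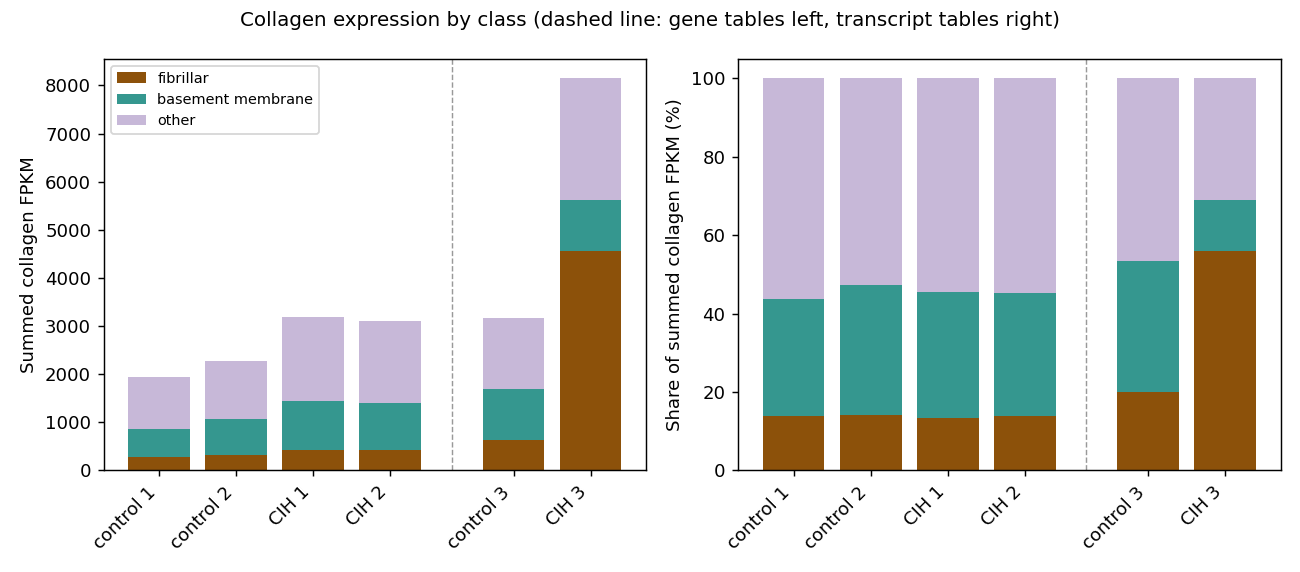
Summed collagen FPKM by class (left) and the share of each class in that sum in percent (right) for each library; the dashed line parts the gene tables from the transcript tables. Fibrillar genes hold 13.3% to 14.1% of the sum in the gene tables, 19.9% in control 3 and 56.0% in CIH 3.

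Genes that make and process collagen were described from a list of 38, of which 31 were tested. In replicates 1 and 2, 9 rose, 7 fell and 15 were not called, with a median log2 change of 0.03, beside 18.2% and 20.9% of all genes tested. The 3 rises with the lowest adjusted p were those of Pcolce, which speeds removal of the procollagen tail (22.4 and 28.2 to 72.8 and 71.4 FPKM, adjusted p = 0.00188), of the collagen chaperone Fkbp10 (26.7 and 29.7 to 49.9 and 47.4, adjusted p = 0.00359) and of the prolyl hydroxylase subunit P4ha3 (0.0744 and 0.0228 to 0.329 and 0.302, adjusted p = 0.00522). The 3 falls with the lowest adjusted p were those of Lox, P4ha1 and Plod1. Lox, a cross-linking oxidase, went from 54.2 and 50.8 to 15.6 and 18.02 FPKM (adjusted p = 0.00102), P4ha1, the main prolyl hydroxylase subunit, from 35.6 and 37.8 to 16.6 and 15.9 (adjusted p = 0.00115) and the lysyl hydroxylase Plod1 from 74.9 and 81.5 to 35.2 and 35.1 (adjusted p = 0.00128). Of the other lysyl oxidases, Loxl1 (log2 change 0.62) and Loxl4 (0.32) rose. P4ha3 passed the filter only through CIH 3, so its place among the 9 rises was set by the filter. With the filter over the 4 gene tables, 18 of 30 stood higher in CIH 3 by 2-fold or more and 0 lower by as much (17.8% and 12.6% of all genes under that filter), with Lox at 49.0 FPKM in control 3 and 583 in CIH 3.

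Partners of the fibril and of the basement membrane were described from a list of 28. Of 10 fibril partners tested, 4 rose and 2 fell in replicates 1 and 2 (median log2 change 0.18). Of 11 basement membrane partners, 4 rose and 2 fell (median 0.20), beside 18.2% and 20.9% of all genes for both lists. Tnc, 1 of the 4 fibril partners that rose, passed the filter only through CIH 3, so its place among them was set by the filter. Tnc was 0.295 and 0.303 FPKM in control 1 and 2 against 0.413 and 0.422 in CIH 1 and 2 (adjusted p = 0.0482). The 12 calls were 7 without CIH 1 and 5 without CIH 2. Sparc, a collagen-binding matricellular protein, went from 145 and 153 to 449 and 408 FPKM (adjusted p = 0.00123), Postn, periostin, from 8.95 and 7.71 to 18.2 and 18.3 (adjusted p = 0.00234) and Thbs1, thrombospondin, from 7.56 and 7.64 to 11.4 and 12.2 (adjusted p = 0.00619). Aebp1, a collagen-binding protein, fell from 12.1 and 13.8 to 7.999 and 8.54 FPKM (adjusted p = 0.00936), as did the laminin chain Lamb3 (adjusted p = 0.0189) and the nidogen Nid2 (adjusted p = 0.019). In the replicate 3 pair, with the filter over the 4 gene tables, which leaves out Tnc, 7 of 9 fibril partners and 4 of 11 basement membrane partners were at least 2-fold higher in CIH 3 (17.8% of all genes). Postn was 55.9 FPKM in control 3 and 1121 in CIH 3, and Aebp1 3.42 and 131.

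Of 15 collagen receptor and turnover genes tested, 4 rose, 3 fell and 8 were not called in replicates 1 and 2 (median log2 change 0.19), beside 18.2% and 20.9% of all genes. Antxr2, a receptor that clears type VI collagen, went from 2.97 and 2.86 to 4.35 and 4.68 FPKM (adjusted p = 0.0101), and the protease inhibitors Timp1 (7.66 and 6.68 to 12.8 and 13.9, adjusted p = 0.00469) and Timp2 (25.1 and 25.8 to 35.2 and 39.0, adjusted p = 0.008) rose. Timp4 (3.14 and 3.06 to 0.837 and 1.01, adjusted p = 0.00133), the lysosomal protease Ctsl (adjusted p = 0.00412) and the collagen-binding integrin chain Itga1 (adjusted p = 0.00447) fell. Mmp9 passed the filter only through CIH 3. With the filter over the 4 gene tables, which leaves it out, 11 of 14 were higher in CIH 3 by 2-fold or more. None was lower by as much (17.8% and 12.6% of all genes under that filter).

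**Figure D5:**
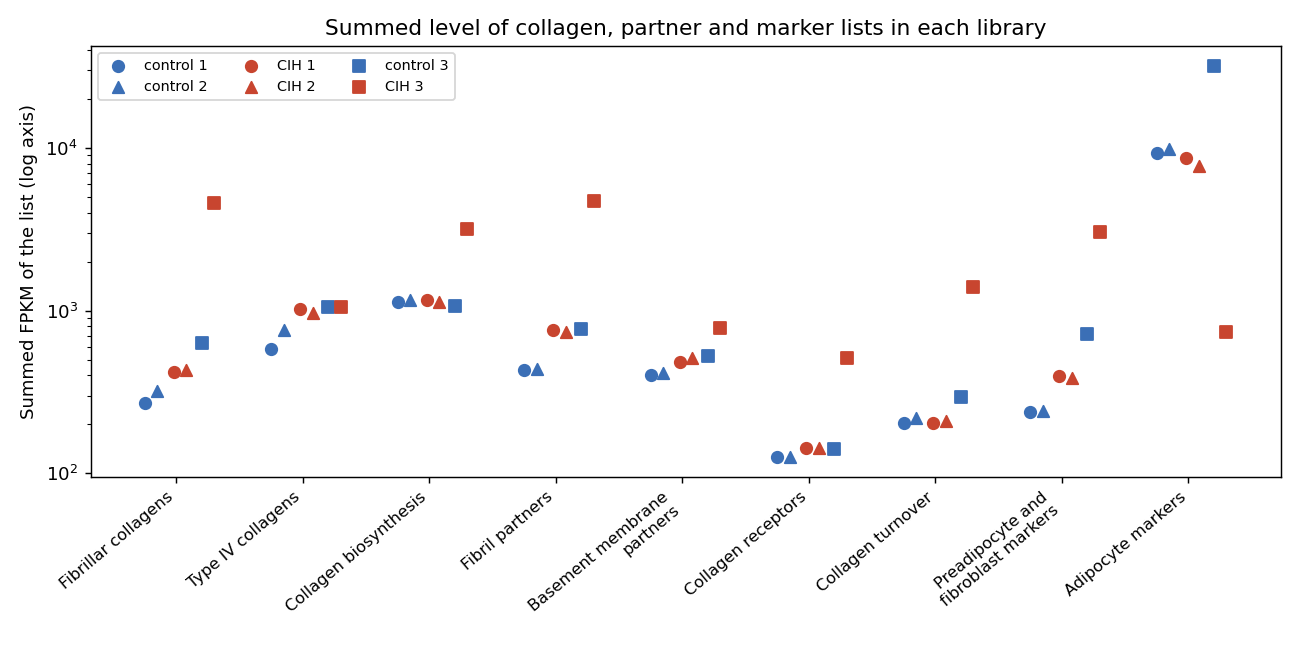
Summed FPKM (log axis) of fibrillar and type IV collagens, of the partner lists and of 2 marker lists in each library, control in blue and CIH in red, with circles, triangles and squares for replicates 1, 2 and 3. CIH 3 stands at 4568 FPKM for fibrillar collagens against 629.9 in control 3, at 1053 against 1058 for type IV collagens and at 742 against 32101 for adipocyte markers.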

How the data were processed

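Messenger RNA of 3T3-L1 cells was measured in 6 libraries, made per the labels' protocols with a directional kit from 1.3 µg of total RNA. The authors deposited FPKM, a unit read from the values because headers give sample names only. The submitters' processing notes list GRCm38, featureCounts 1.5.0-p3 and DESeq 1.8.3 without their roles. Neither the aligner nor the strand setting is stated there, so reads of overlapping genes on opposite strands may not have been separated. For Col4a1 and Col4a2 this concerns only a short shared stretch (gap of −22 bases), beside exon lengths of 7464 and 6619 bases. In the gene tables, 98.4% to 98.6% of genes under 50 fragments lay within 0.05 of a whole fragment, which gave the depth. Repeated IDs in replicate 3 were summed. Of 21769 shared gene IDs, 21753 had a GENCODE symbol.

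Genes averaging 1 FPKM or more (10976) were tested on log2(FPKM + 1) with limma 3.58.1 (R 4.3.3), trended empirical Bayes and Benjamini-Hochberg adjustment; fold changes on this scale understate low genes. The script was tested on simulated data. Summaries used Python 3.11.15. Deviations from group means correlated at 0.529, 0.587 and 0.581 between same-numbered libraries. Control 1 with CIH 2 reached 0.568, and control 2 with CIH 1 reached 0.567. The group means included replicate 3, so libraries 1 and 2 deviate together from replicate 3 whether or not they are paired. The correlations thus cannot show whether numbers 1 and 2 pair the samples, and the labels state no pairing. Replicate 3 differs from the others in kind of table, so its correlation cannot show pairing either. The main fit used the group alone. The members and lists were chosen with earlier results of these data known. Every tested collagen is named, and of each partner list the 3 called genes with the lowest adjusted p in each direction. Alternatives were another pseudocount, filter, scaling, entry rule or design, the replicate block, and each library left out.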

Additional observations from a re-analysis of the deposited data

Results flagged for a closer look

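In 16 members limma's interaction called a difference between the log2 change of the replicate 3 pair and that of replicates 1 and 2, as in 66.0% of all genes. Each arm of the pair is 1 library, assumed to vary like replicates 1 and 2, so the calls describe these libraries. The difference (replicate 3 minus replicates 1 and 2, in log2 units) was positive for Col1a1 (4.13), Col23a1 (3.11), Col11a1 (3.09), Col1a2 (2.75), Col16a1 (2.74), Col12a1 (2.59), Col5a2 (2.27), Col3a1 (1.76), Col5a1 (1.04), Col27a1 (1.01) and Col4a5 (0.78). It was negative for Col15a1 (−3.04), Col7a1 (−2.06), Col11a2 (−1.71), Col5a3 (−1.002) and Col4a1 (−0.91). With scaling by total FPKM, Col4a1 (−0.15, adjusted p = 0.621) and Col5a3 (−0.27, adjusted p = 0.35) were not called, and Col4a1 was not called with a pseudocount of 0.1 either (adjusted p = 0.0546). Col23a1 passed the filter only through CIH 3, which set its place here, and Col27a1 passed only through the transcript tables. The kind of table and the replicate cannot be told apart in this comparison.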

How the results depend on the processing

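Counts of called members in replicates 1 and 2 were within 1.5 times of 14 under both other pseudocounts, all 3 scalings, the filter over the 4 gene tables and the replicate block (10 to 16). Under the block 10 of the 14 calls held, and Col6a1, Col6a3, Col4a1 and Col5a2 lost theirs; the 10 calls were all upward. Without a filter on low values, 3 collagens were called (fibrillar 1, basement membrane 0, other 2). Of all 21769 genes tested in that setting, 590 were called higher and 806 lower. At an unadjusted p under 0.05 there were 13 collagens, against 16 with the filter. Also called were 9 biosynthesis genes, 5 partners and 2 receptor or turnover genes. The interaction without the filter called 25 collagens, with 6654 of all genes more positive and 2769 more negative. In both fits of all 6 libraries, with the group alone or with the kind of table, limma called 0 collagens and 0 in each class. Over all 10976 genes it called 0 with the group alone, and 20 higher and 43 lower with the kind of table. Of the 22 collagens, 1 and 5 were at an unadjusted p under 0.05, and Col5a2 stood at 0.39 in both fits. For basement membrane genes the count of 1 became 2 with the filter over the gene tables, the median of ratios or the upper quartile, and 0 with the replicate block. Leaving out 1 library gave 7 to 12 calls in all, 3 to 6 fibrillar, 0 to 2 basement membrane and 3 to 4 other, 11 to 13 biosynthesis genes, 5 to 9 partners (7 without CIH 1, 5 without CIH 2) and 5 to 8 receptor or turnover genes; in Col1a1 the call was lost without CIH 2, and in Col3a1 without control 1, CIH 1 or CIH 2. Each fit with 1 library left out has 1 library in a group, and calls over all genes were fewer in each of them. Scaling by total FPKM turned the replicate difference of Col6a3 from −0.09 to 0.67. Taking the highest entry of each ID in place of the sum moved the log2 change of Col1a1/Col1a2 in the replicate 3 pair from 1.14 to 1.21 and that of Col6a3/Col6a1 from −0.73 to −0.35. Leaving out mitochondrial-encoded genes moved the log2 change of the collagen share in that pair from 1.99 to 1.53. The cause was not tested. Fold changes of members near 1 FPKM are limited by depth, and the depth of replicate 3 is unknown.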

Other observations

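The transcript tables list several entries for some collagens, in the same order in both libraries but with no transcript names. Of the 5 Col18a1 entries, the first was 5.68 FPKM in control 3 and 17.7 in CIH 3, the third 4.54 and 0.820, and the fifth 3.50 and listed at 0. The first entry thus held 38.6% of the gene's sum in control 3 and 89.2% in CIH 3, while the sum itself was 14.7 and 19.8 FPKM. The 5 Col6a3 entries also shifted: the third was 373 and 626 FPKM and the fourth 299 and 232, so that the third held 49.6% of the sum in control 3 and 64.8% in CIH 3. In Col3a1 the first of 3 entries held 83.4% and 84.5%. With 1 library per group and fractional estimates, these splits have no error.

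Members that adjoin each other in the genome did not always move alike. Col6a2 and Col6a1, on the same strand of chromosome 10 and 85161 bases apart, rose by 0.91 and 0.60 in replicates 1 and 2 and differed by 1.03 and 1.09 in the replicate 3 pair (log2). Col4a5 was expressed, at 13.9 to 16.1 FPKM in the gene tables, while Col4a6, head to head with it on chromosome X across a gap of 1308 bases, did not exceed 0.0274 FPKM there. The head-to-head genes Col4a3 and Col4a4 on chromosome 1, 71 bases apart, were both at or under 0.0192 FPKM in the gene tables.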
